A study of Arabidopsis thaliana with 9 samples.

Results

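The 10 genes described here are regulators through which Arabidopsis thaliana perceives the defence hormone salicylate and sets its basal immune state. They were taken by locus from the deposited count table, 10 of its 32833 genes, and all 10 passed the filter on low counts. They are the receptor genes NPR1 (AT1G64280), NPR3 (AT5G45110) and NPR4 (AT4G19660), and the NPR1-interacting genes NIMIN1 (AT1G02450), NIMIN2 (AT3G25882) and NIMIN3 (AT1G09415). The others are the transcription factor genes SARD1 (AT1G73805) and CBP60g (AT5G26920) and the lipase-like immune genes EDS1 (AT3G48090) and PAD4 (AT3G52430). The 9 libraries came from whole rosettes of plants 4 weeks old, kept in days of 16 h of light and 8 h of dark. There were 3 libraries each of wild type (WT), of the line TINYOE, whose genotype is labelled BES1P::TINYOE, and of tiny124, whose genotype is labelled tiny1tiny2tiny4. TINY is a transcription factor of the AP2/ERF family, and the series title places it in brassinosteroid-regulated growth and the drought response. The labels give no background accession, number of independent lines or number of plants per library. The p-values therefore cover only the spread among these libraries, and that spread may be technical.

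Salicylate is bound in the plant cell by the NPR proteins. NPR1 is a co-activator of defence genes and acts through TGA transcription factors, while NPR3 and NPR4 act as co-repressors of the same genes when salicylate is scarce. Upstream, EDS1 and PAD4 form a complex that relays signals from immune receptors, and SARD1 and CBP60g switch on the genes for salicylate and pipecolate synthesis. NIMIN proteins bind NPR1 and restrain or shape its output, and NIMIN1 and NIMIN2 are themselves induced by salicylate.

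Total counts ranged from 4917868 to 6070778 per library. Levels are given as CPM, counts scaled to a common library size with the TMM method. The kit counts 1 tag per transcript near its 3' end, so a level is not divided by transcript length and is compared only within a gene. As a check of the genotypes, TINY itself had 18 to 25 tags per WT library, 27 to 35 per TINYOE library and 3 to 5 per tiny124 library. It fell in tiny124 against WT (log2 fold change -2.48 ± 0.37, adjusted p = 0.00168) and did not pass in TINYOE (0.40 ± 0.27, adjusted p = 0.343). TINY2 was removed by the filter, with 5 to 11 tags in WT and at most 2 in any other library. A transgene with another 3' end would not show in these tags, so they do not check the TINYOE label. Of the tissue markers, 3 leaf genes summed to between 28278 and 46676 CPM in every library, which fits the rosette label, and 5 root genes to between 21.4 and 27.3 CPM, with PLT1, RHD6 and WOX5 at 0 to 2 counts. The 5 flower markers summed to 15.5 to 30.4 CPM in WT, 26.8 to 30.7 in tiny124 and 25.4 to 59.6 in TINYOE. Of the flower markers, 1 of 5, PI, rose in TINYOE against WT (log2 fold change 0.96 ± 0.28, adjusted p = 0.0282), as did 8.15% of all genes tested. All 5 flower markers were above 0, with a median of 0.96. Of them 4 had an unadjusted p under 0.05, as did 30.4% of all genes. Of the leaf markers 2 of 3, RBCS1A and CA1, fell (-0.49, adjusted p = 0.0301, and -0.47, adjusted p = 0.0466), as did 7.44% of all genes. The part of these organ markers in the results below was not tested. In whole rosettes, fewer cells of a type and less RNA per cell cannot be told apart.

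The comparison of TINYOE with WT asked what accompanies overexpression of TINY. Of the 10 regulators 7 rose in TINYOE and 0 fell, where 8.15% of the 16434 genes tested rose and 7.44% fell. The 7 were NIMIN1, NIMIN2, SARD1, CBP60g, PAD4, EDS1 and NPR3, with increases between 1.79-fold and 6.58-fold. NPR1, NPR4 and NIMIN3 did not pass the test. The median log2 fold change of the 10 genes was 1.25, and that of all genes tested was 0.0015. The lowest TINYOE library lay above the highest WT library in 8 of the 10 genes, which held for 16.2% of all genes tested. The comparison of tiny124 with WT, which asked what accompanies the lesions, gave 0 of 10 called by edgeR and 1 by DESeq2, and 4 had an unadjusted p under 0.05, as did 11.6% of all genes tested. In tiny124, 2 of the 10 lay wholly above WT and 2 wholly below it, as did 8.23% and 7.58% of all genes. In that comparison 2.5% of genes were called. In the direct comparison of the lines, 6 of 10 were higher in TINYOE than in tiny124 and 0 lower, where 9.85% of all genes were called, 5.12% higher and 4.73% lower. All TINYOE libraries were above all tiny124 libraries in 8 of the 10, as in 15.5% of genes tested. The comparisons with WT used the same WT libraries.

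**Figure D1:**
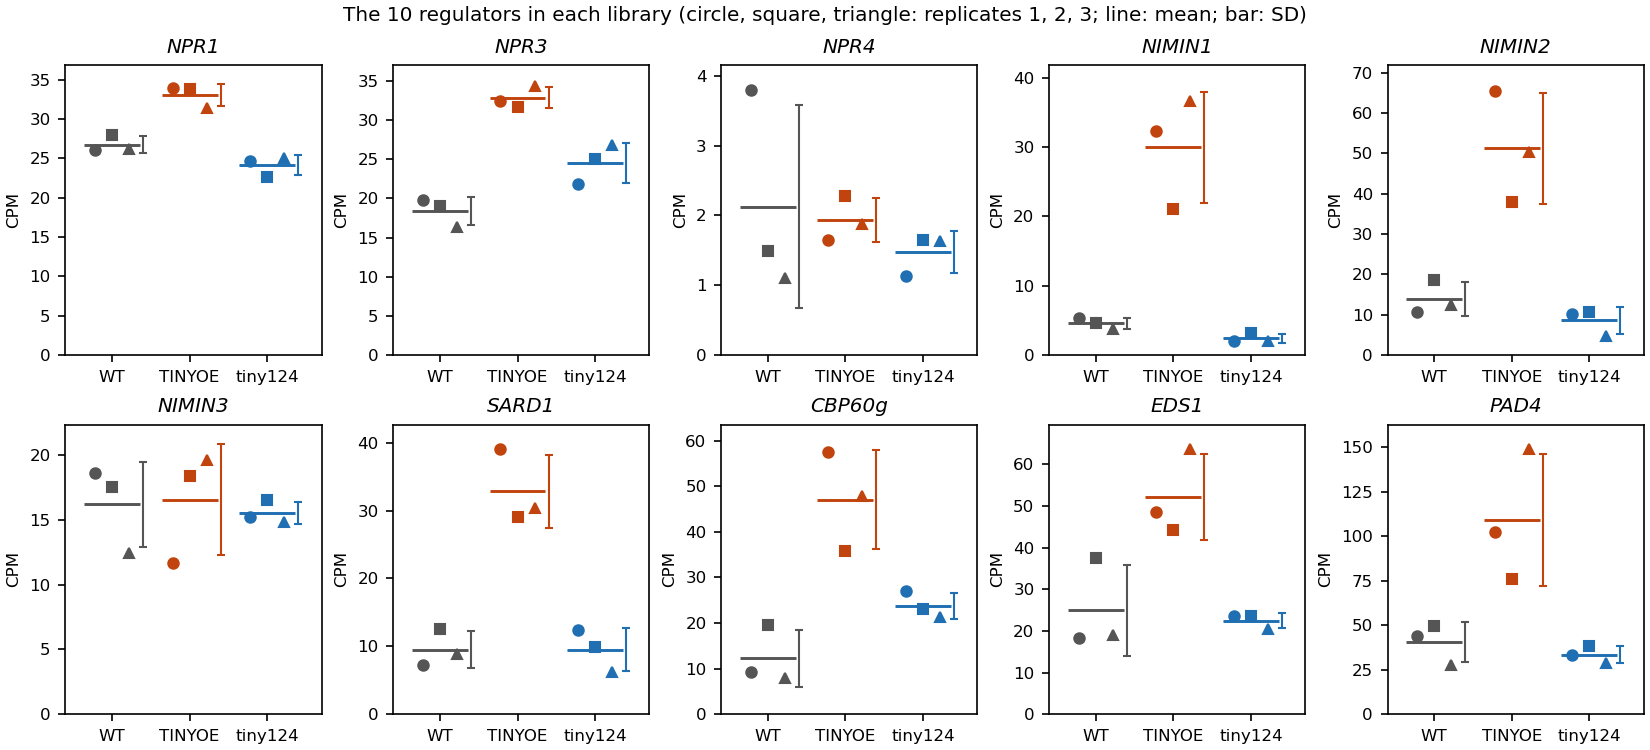
CPM (vertical axis, linear, from 0) of each of the 10 regulators in the 9 libraries, by genotype on the horizontal axis, with the mean as a line and the SD as a bar (n = 3). NIMIN1, NIMIN2, SARD1, CBP60g, EDS1, PAD4, NPR1 and NPR3 show all 3 TINYOE libraries above all 3 WT libraries, while NPR4 and NIMIN3 overlap.

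Among the salicylate receptors, NPR3 was the one that rose in TINYOE. It stood at 19.7, 19.1 and 16.3 CPM in WT replicates 1, 2 and 3, at 32.4, 31.7 and 34.3 in TINYOE and at 21.8, 25.0 and 26.9 in tiny124. The 3 genotypes did not overlap, with WT lowest and TINYOE highest. The log2 fold change of TINYOE over WT was 0.84 ± 0.17 (SE, adjusted p = 0.00398). For tiny124 over WT it was 0.42 ± 0.18 (adjusted p = 0.332), with a 95% interval of 0.05 to 0.79, and for TINYOE over tiny124 0.42 ± 0.17 (adjusted p = 0.142, interval 0.06 to 0.78), so tiny124 was not separated from either neighbour by the test over all genes.

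NPR1, the co-activator that NPR3 resembles, stood at 26.0, 28.0 and 26.2 CPM in WT, at 33.9, 33.8 and 31.4 in TINYOE and at 24.7, 22.7 and 25.1 in tiny124. Its libraries were tightly grouped and the genotypes did not overlap, yet the differences were small. The log2 fold change was 0.31 ± 0.16 in TINYOE (adjusted p = 0.212, interval -0.03 to 0.65) and -0.15 ± 0.16 in tiny124 (adjusted p = 0.824, interval -0.49 to 0.20), and 0.45 ± 0.16 between the lines (adjusted p = 0.0904). A change in TINYOE of more than 1.57-fold lay outside its 95% interval. An annotated pseudogene, AT1G64270, lies on the opposite strand over the 3' end of NPR1, and a noncoding gene on that strand had 0 counts. No source used here says whether the counting used strand.

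NPR4, the closest relative of NPR3, was at the limit of detection, where the WT libraries held 20, 7 and 6 counts, the TINYOE libraries 10, 13 and 11, and the tiny124 libraries 6, 10 and 9. The libraries overlapped throughout, and WT replicate 1 held more counts than the other WT libraries together. The 95% interval of TINYOE over WT ran from -1.10 to 0.81 on the log2 scale around -0.14 (adjusted p = 0.86). That of tiny124 over WT ran from -1.52 to 0.48 around -0.52 (adjusted p = 0.766). As a fold change the interval of TINYOE over WT ran from 0.467 to 1.76, and changes within it could not be told from none. Without WT replicate 1 the log2 values of the comparisons with WT were 0.59 and 0.21, so NPR4 has no direction here.

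NIMIN1, which binds NPR1 and limits the expression of PR1, had the largest change of the 10 regulators in both comparisons that hold TINYOE. It stood at 5.32, 4.66 and 3.67 CPM in WT, at 32.3, 21.0 and 36.6 in TINYOE and at 2.07, 3.14 and 2.0 in tiny124. The genotypes did not overlap, and the lowest TINYOE library was far above the highest of any other. NIMIN1 rose 6.58-fold in TINYOE over WT (log2 fold change 2.72 ± 0.26, adjusted p = 9.63e-06). Against tiny124 it was 12.3-fold higher (3.62 ± 0.28, adjusted p = 1.58e-06, interval 8.12-fold to 18.5-fold). The mean of tiny124 was 2.40 ± 0.641 CPM against 4.55 ± 0.83 in WT (SD, n = 3). That difference of -0.90 ± 0.33 had an interval of -1.60 to -0.20 and an unadjusted p of 0.0153, and it did not pass the test over all genes (adjusted p = 0.24).

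NIMIN2, a salicylate-induced gene of the same family, followed the same order. Its levels were 10.6, 18.6 and 12.3 CPM in WT, at 65.4, 37.9 and 50.4 in TINYOE and at 10.2, 10.7 and 4.72 in tiny124. TINYOE lay apart from both other genotypes, and WT and tiny124 overlapped through WT replicate 1 and tiny124 replicate 2. It rose 3.71-fold over WT (1.89 ± 0.28, adjusted p = 0.000322) and was 5.97-fold higher in TINYOE than in tiny124 (2.58 ± 0.29, adjusted p = 4.12e-05). The value of tiny124 over WT was -0.69 ± 0.31 (adjusted p = 0.391).

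NIMIN3, which unlike NIMIN1 and NIMIN2 is known to be expressed without salicylate, did not share this pattern. It stood at 18.6, 17.6 and 12.5 CPM in WT, at 11.7, 18.4 and 19.6 in TINYOE and at 15.3, 16.5 and 14.9 in tiny124. All genotypes overlapped, and the TINYOE libraries held both its highest and its lowest value. The log2 fold change was 0.03 ± 0.22 in TINYOE (adjusted p = 0.936, interval -0.44 to 0.51) and -0.06 ± 0.23 in tiny124 (adjusted p = 0.966, interval -0.53 to 0.42). An increase of more than 1.42-fold in TINYOE lay outside the interval.

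**Figure D2:**
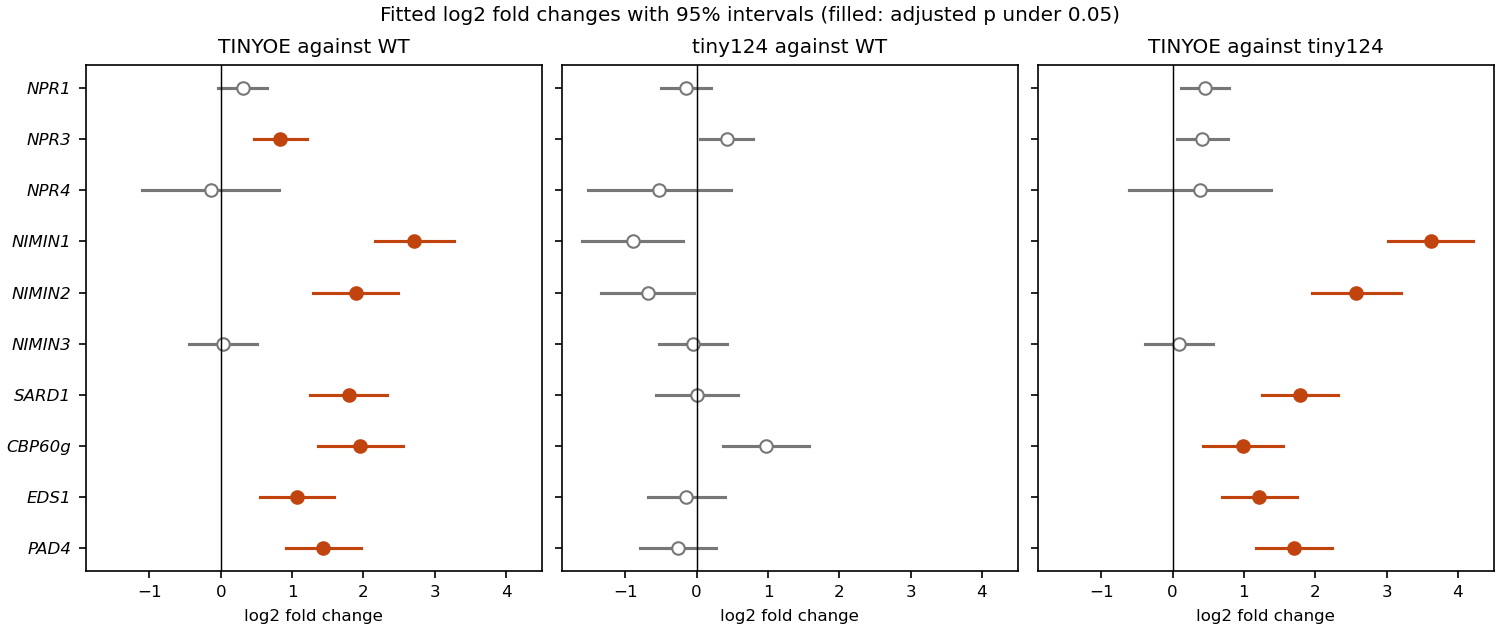
Fitted log2 fold changes (horizontal axis) of the 10 regulators in the 3 comparisons, with points at the estimate, lines for the 95% interval and filled points for an adjusted p under 0.05. TINYOE against WT has 7 filled points, tiny124 against WT has 0, and TINYOE against tiny124 has 6, with NIMIN1 at 2.72 and 3.62 in the comparisons with TINYOE.

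SARD1 and CBP60g are plant-specific DNA-binding proteins of the CBP60 family with overlapping targets, and CBP60g, unlike SARD1, binds calmodulin. SARD1 stood at 7.21, 12.5 and 8.80 CPM in WT, at 39.0, 29.1 and 30.4 in TINYOE and at 12.4, 9.92 and 6.17 in tiny124. WT and tiny124 covered almost the same range, and every TINYOE library was above both. SARD1 rose 3.47-fold over WT (1.79 ± 0.25, adjusted p = 0.000215) and was 3.45-fold higher than in tiny124 (1.79 ± 0.25, adjusted p = 0.000253). For tiny124 over WT the estimate was 0.0067 ± 0.27 (adjusted p = 0.997) and the interval -0.57 to 0.58, so a change beyond 1.5-fold in either direction lay outside it. A gene on the opposite strand, GIP2 (AT1G73790), covers the 3' end of SARD1. GIP2 stood at 12.6 to 18.0 CPM in WT, 9.38 to 14.9 in TINYOE and 12.3 to 14.6 in tiny124, ranges that overlap, with a log2 fold change of -0.27 ± 0.22 in TINYOE (adjusted p = 0.452).

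CBP60g differed from SARD1 in tiny124. It stood at 9.30, 19.5 and 7.88 CPM in WT, at 57.5, 35.8 and 47.8 in TINYOE and at 26.9, 23.2 and 21.2 in tiny124. The 3 genotypes did not overlap, with tiny124 between WT and TINYOE, and WT replicate 2 was more than 2 times as high as either other WT library. CBP60g rose 3.88-fold in TINYOE over WT (1.96 ± 0.28, adjusted p = 0.000245). In tiny124 its log2 fold change was 0.97 ± 0.29 with an interval of 0.37 to 1.58, which missed the threshold (adjusted p = 0.101). The call depended on the processing: the adjusted p was 0.0458 with DESeq2, 0.00145 without a filter and 0.0019 without WT replicate 2, where the log2 fold change was 1.47. Without a filter the log2 fold change stayed at 0.97, so that p is not read as stronger evidence. Over 15 alternatives the adjusted p ranged from 0.00145 to 0.355. The authors' deposited table for tiny124, which does not hold WT replicate 2, gives CBP60g a fold change of 2.77 and an adjusted p of 0.00454.

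TINYOE exceeded tiny124 in CBP60g by 0.98 ± 0.26 (1.98-fold, adjusted p = 0.0257). That call was lost without TINYOE replicate 1 or 3 or without any of the 3 tiny124 libraries, where the adjusted p lay between 0.0576 and 0.117. Over 15 alternatives it ranged from 0.000106 to 0.117.

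EDS1 and PAD4 encode the partners of the lipase-like complex upstream of salicylate. EDS1 stood at 18.2, 37.5 and 19.1 CPM in WT, at 48.6, 44.2 and 63.7 in TINYOE and at 23.5, 23.5 and 20.3 in tiny124. WT replicate 2 was again far above the other WT libraries, though below the lowest TINYOE library, and tiny124 lay within the range of WT. EDS1 rose 2.10-fold over WT (1.07 ± 0.25, adjusted p = 0.00766) and was 2.32-fold higher in TINYOE than in tiny124 (1.22 ± 0.25, adjusted p = 0.00456). For tiny124 over WT it was at -0.14 ± 0.25 (adjusted p = 0.901, interval -0.68 to 0.39). The locus beside EDS1, AT3G48080, is a close copy of it, so single counts of the pair are uncertain. That copy stood at 2.33 to 4.95 CPM in WT, 4.10 to 5.60 in TINYOE and 1.63 to 2.98 in tiny124. With the counts of the pair summed, the log2 fold change in TINYOE over WT was 0.99 (adjusted p = 0.00571).

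PAD4 stood at 43.7, 49.6 and 27.9 CPM in WT, at 102, 75.9 and 149 in TINYOE and at 33.5, 38.0 and 28.9 in tiny124. The TINYOE libraries differed from each other by more than those of the other genotypes, but all lay above WT, while WT and tiny124 overlapped. PAD4 rose 2.71-fold over WT (1.44 ± 0.25, adjusted p = 0.00106) and was 3.25-fold higher in TINYOE than in tiny124 (1.70 ± 0.25, adjusted p = 0.00035). For tiny124 over WT it was at -0.27 ± 0.25 (adjusted p = 0.78, interval -0.80 to 0.27).

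Libraries of the same genotype stood apart over these genes, with several of the genes shifted the same way in a library. WT replicate 2 was the highest WT library in 6 of the 10 regulators and the lowest in 0, with a median log2 difference of 0.35 from the mean of the remaining WT libraries, and WT replicate 3 was the lowest in 6, with a median of -0.43. In TINYOE, replicate 2 was the lowest library in 7 of the 10, with a median of -0.29, and in tiny124 replicate 3 was the lowest in 7, with a median of -0.22. Each of the 7 genes called in TINYOE over WT stayed called in all 15 alternatives tried, in which each library was left out in turn among others, and EDS1, with 16, had the highest adjusted p of the 7, 0.0498.

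The regulators were also compared with each other across the 9 libraries. The highest Pearson correlations of log2 CPM were 0.96 between NIMIN2 and SARD1, 0.96 between NIMIN1 and PAD4 and 0.95 between NIMIN1 and NIMIN2, and that of EDS1 and PAD4 was 0.93. NPR1, which did not pass in TINYOE, was at 0.91 with NIMIN1, 0.89 with NIMIN2 and 0.87 with SARD1. NPR3 was most like CBP60g among the 10, at 0.895, and was at 0.60 with NIMIN2. NIMIN1 and CBP60g, which both rose, were at 0.66. NIMIN3 and NPR4 had their highest value with each other, at 0.57, a pair of which NPR4 has few counts. These values share the libraries and the difference between genotypes, and are given as a description.

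Outside the 10, the genes most like them were taken from 5715 genes with a symbol and a mean of at least 5 CPM. NIMIN1 was most like ICS2 (r = 0.98 over 9 libraries), an isochorismate synthase gene, which stood at a mean of 7.27 CPM in WT, at 18.3 in TINYOE and at 4.95 in tiny124, and NHO1 (0.97), a glycerol kinase gene. SARD1 was most like RGLG4 (0.98) and ERH3 (0.97), and NIMIN2 like FRS8 (0.98) and BGLU10 (0.98). NHO1, RGLG4, ERH3 and FRS8 all lie at the end of chromosome 1, between AT1G79380 and AT1G80460. No regulator of the 10 lies within that span, which is set by these genes only. SARD1 (AT1G73805), NIMIN1 (AT1G02450), NPR1 (AT1G64280) and NIMIN3 (AT1G09415) are on the same chromosome. The part of position in these likenesses was not tested. CBP60g was most like VPS15 (0.98) and the calmodulin-like gene CML37 (0.97), which stood at 2.41 CPM in WT, at 13.9 in TINYOE and at 4.41 in tiny124. NPR3 was most like GCD1 and TLP9 (both 0.97), EDS1 like DL1E and FLOT1 (both 0.98) and PAD4 like SAL2 (0.97) and ATSTE14B (0.96).

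The other genes of the pathway were grouped in 7 lists of 47 genes, 40 of which were tested. Of the partners of EDS1 and the helper receptors that signal with it, 4 of 8 rose in TINYOE over WT and 0 fell (8.15% and 7.44% of all genes), with a median log2 fold change of 0.65. ADR1-L2 and ADR1-L1, helper receptors of the EDS1 and PAD4 complex, rose 2.94-fold (1.56 ± 0.33, adjusted p = 0.00476) and 1.98-fold (0.99 ± 0.23, adjusted p = 0.00847). ADR1-L1 stood at 27.9, 64.6 and 48.2 CPM in WT and at 100.1, 87.8 and 90.2 in TINYOE. AT5G66910, annotated as a disease resistance protein of the CC-NBS-LRR class, also rose (0.998 ± 0.25, adjusted p = 0.0113) and lost the call without WT replicate 3 or TINYOE replicate 3 (adjusted p = 0.0583 and 0.055). The fourth was ADR1 itself (0.77 ± 0.18, adjusted p = 0.00901). Against WT, tiny124 had 0 of the 8 called by edgeR or DESeq2, where edgeR called 2.5% of all genes, and 1 had an unadjusted p under 0.05 (11.6% of all genes).

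The partners of NPR1 in transcription, the 7 TGA factors, had 0 called in either line by edgeR or DESeq2. Of all genes tested edgeR called 15.6% in TINYOE and 2.5% in tiny124. Of the 7, 2 had an unadjusted p under 0.05 in TINYOE (30.4% of all genes tested) and 0 in tiny124 (11.6%), with medians of 0.31 and -0.08. In TINYOE 3 of the 7, TGA1, TGA3 and TGA5, lay wholly above WT, as did 16.2% of all genes. TGA1 was at 0.55 ± 0.19 (adjusted p = 0.0628). TGA3, the one with the most tags, stood at 27.9, 34.7 and 31.2 CPM in WT, at 38.0, 38.0 and 40.3 in TINYOE and at 28.4, 31.1 and 29.4 in tiny124 (0.31 ± 0.16 in TINYOE, adjusted p = 0.211). Of the NPR relatives, BOP1 and BOP2 were removed by the filter, with 0 to 4 and 2 to 11 counts, and AT4G26120, annotated as an ankyrin repeat and BTB/POZ protein, was at 0.65 ± 0.44 in TINYOE (adjusted p = 0.346).

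Among the genes of NPR1 turnover and redox control, 1 of 4 tested rose in TINYOE, where 8.15% of all genes rose. It was TRXH5 (TRX5), a thioredoxin that reduces NPR1, which stood at 86.0, 115 and 62.1 CPM in WT, at 292, 337 and 298 in TINYOE and at 78.5, 64.0 and 51.8 in tiny124. TRXH5 rose 3.53-fold over WT (1.82 ± 0.21, adjusted p = 4.46e-05) and was 4.77-fold higher in TINYOE than in tiny124 (2.25 ± 0.22, adjusted p = 9.78e-06). The cullin genes CUL3A and CUL3B, whose product is a scaffold of the ligase that turns NPR1 over, were not called in any comparison.

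Of the CBP60 relatives and CAMTA factors, 1 of 8 tested rose in TINYOE over WT, a share near the 8.15% of all genes. It was AT5G57580, annotated as a calmodulin-binding protein (1.64-fold, adjusted p = 0.00951). CAMTA3, a repressor of SARD1 and CBP60g, stood at 45.8 to 48.8 CPM in WT, 42.5 to 53.5 in TINYOE and 47.6 to 60.3 in tiny124, ranges that overlap. Between the lines, CBP60a, known as a negative regulator of immunity, was lower in TINYOE than in tiny124, by 0.85 ± 0.21 on the log2 scale (adjusted p = 0.0138). It stood at 22.6, 17.4 and 22.0 CPM in TINYOE and at 41.0, 26.8 and 44.3 in tiny124, against 24.9, 22.9 and 21.1 in WT. The call was lost without TINYOE replicate 2 or tiny124 replicate 1 or 3 (adjusted p = 0.0785, 0.0669 and 0.0835). Between the lines AT4G31000 was lower in TINYOE (-1.17 ± 0.33, adjusted p = 0.0335) and AT5G57580 higher (0.56 ± 0.17, adjusted p = 0.0478), and each lost its call in more than 5 alternatives.

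**Figure D3:**
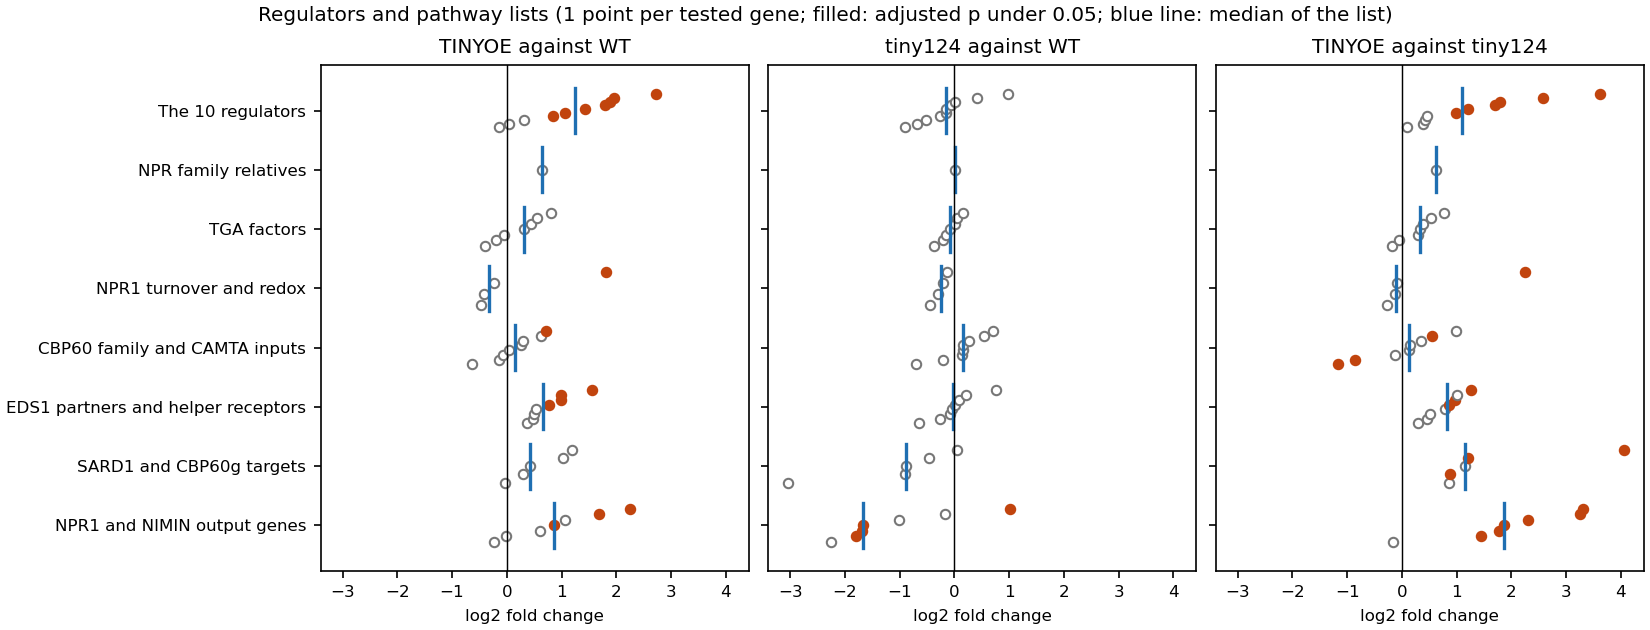
Log2 fold changes (horizontal axis) of the tested genes of the 10 regulators and of each of the 7 pathway lists, in the 3 comparisons, with filled points for an adjusted p under 0.05 and a blue line at the median. In TINYOE against WT the 10 regulators have the median farthest from 0, at 1.25, and in tiny124 against WT the output list has, at -1.67.

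The tested genes listed here as activated by SARD1 and CBP60g did not pass the test in TINYOE over WT. The list holds genes of salicylate and pipecolate production only and is not a full set of the targets of these factors. Of 5 tested, edgeR and DESeq2 called 0 in TINYOE over WT, and 1 had an unadjusted p under 0.05, as did 30.4% of all genes tested. ICS1, the main isochorismate synthase of salicylate production, stood at 56.2, 48.3 and 29.7 CPM in WT, at 72.3, 41.4 and 65.4 in TINYOE and at 31.1, 29.9 and 36.3 in tiny124. The TINYOE and WT libraries overlapped (0.42 ± 0.24, adjusted p = 0.251, interval -0.09 to 0.92). EDS5, which exports the salicylate precursor from the plastid, stood at 7.02, 6.35 and 5.87 CPM in WT and at 6.75, 4.21 and 7.86 in TINYOE. FMO1, which makes the mobile signal N-hydroxypipecolate, was removed by the filter with 2 to 7 counts.

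Between TINYOE and tiny124, 3 of these 5 genes were called higher in TINYOE, as were 5.12% of all genes. ALD1, the first enzyme of pipecolate synthesis, had 29, 12 and 18 counts in TINYOE, 1, 0 and 2 in tiny124 and 12, 11 and 2 in WT. The ratio of depth-scaled counts of TINYOE over tiny124 was 18.8, with an exact 95% interval of 6.13 to 93.8 that covers counting error only. The adjusted p of edgeR for this comparison was 0.00243. Over WT, the log2 fold change of ALD1 was 1.02 in TINYOE (adjusted p = 0.197) and -3.04 in tiny124 (adjusted p = 0.0866). AT5G52810, annotated as an NAD(P)-binding protein, was 2.31-fold higher (1.21 ± 0.24, adjusted p = 0.00441). ICS1 was 1.84-fold higher (adjusted p = 0.0278), a call lost without TINYOE replicate 1 or 3 or any tiny124 library, with adjusted p up to 0.126. Against WT, edgeR called 0 of the 5 in tiny124, beside 2.5% of all genes tested, and DESeq2 called 1, AT5G52810, lower. In that comparison 3 had an unadjusted p under 0.05 (11.6% of all genes), and the median was -0.89, against -0.0127 for all genes tested. Of the 6 genes of the list, tested or not, 4 lay wholly below WT in tiny124, as did 7.58% of all genes tested. ALD1 and FMO1, which are among them, had few counts. ALD1 had 2 counts in both WT replicate 3 and tiny124 replicate 3, so only the scaling set these apart. FMO1, removed by the filter, had 4, 7 and 3 counts in WT and 2 in each tiny124 library. EDS5 was at -0.89 ± 0.29 in tiny124 over WT (adjusted p = 0.147).

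Of the 7 tested genes that NPR1 and the NIMIN proteins act on, 3 rose in TINYOE over WT and 0 fell, beside 8.15% and 7.44% of all genes. The WRKY factor genes WRKY38, WRKY70 and WRKY18 rose. WRKY54 did not pass (0.61 ± 0.23, adjusted p = 0.0897), and PR1, PR2 and PR5, which encode secreted antimicrobial proteins and serve as markers of salicylate output, did not pass either. WRKY38 stood at 1.90, 1.91 and 1.28 CPM in WT, at 10.2, 7.36 and 6.66 in TINYOE and at 0.753, 1.32 and 0.363 in tiny124, and rose 4.74-fold over WT (2.25 ± 0.35, adjusted p = 0.000473). WRKY70, a factor that favours salicylate over jasmonate responses, stood at 58.3, 141 and 92.6 CPM in WT, at 413, 211 and 317 in TINYOE and at 88.1, 110 and 60.5 in tiny124. All TINYOE libraries were above all WT libraries in both, and WRKY70 rose 3.22-fold (1.69 ± 0.30, adjusted p = 0.00132). WRKY18 rose 1.82-fold (adjusted p = 0.00966), a call lost without TINYOE replicate 3 (adjusted p = 0.058).

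PR1 stood at 59.6, 151 and 14.5 CPM in WT and at 189, 58.4 and 220 in TINYOE. The genotypes overlapped and each spread widely, with WT replicate 2 and TINYOE replicate 2 the libraries nearest to the other genotype. The log2 fold change was 1.06 ± 0.54 (adjusted p = 0.202, interval -0.09 to 2.20). Without WT replicate 2 it was 2.08 (adjusted p = 0.00402). Without a filter the adjusted p was 2.77e-06 at nearly the same log2 fold change, 1.0526, so that p is not read as stronger evidence. Over 15 alternatives the adjusted p ranged from 2.77e-06 to 0.483. PR2 and PR5 were at -0.23 ± 0.31 (adjusted p = 0.653) and -0.02 ± 0.36 (adjusted p = 0.978), and neither had a stable direction, since both were above 0 without WT replicate 2 or TINYOE replicate 2.

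In tiny124 over WT, 3 of the 7 tested output genes fell and 1 rose, with a median log2 fold change of -1.67, while 0.755% of all genes fell and 1.75% rose. WRKY54, a close relative of WRKY70, stood at 15.4, 18.6 and 20.7 CPM in WT and at 4.90, 8.10 and 3.81 in tiny124, with no overlap, and fell 3.22-fold (-1.69 ± 0.27, adjusted p = 0.00255). PR2 stood at 204, 272 and 105 CPM in WT and at 58.9, 46.3 and 76.8 in tiny124. It fell 3.19-fold (-1.67 ± 0.32, adjusted p = 0.00908), and the call was lost without tiny124 replicate 1 or 2 (adjusted p = 0.0564 and 0.0606). PR5 stood at 89.6, 169 and 48.8 CPM in WT and at 26.4, 34.1 and 28.0 in tiny124. It fell 3.47-fold (-1.79 ± 0.38, adjusted p = 0.0188), and the call was lost without any of the tiny124 libraries (adjusted p from 0.0606 to 0.109).

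PR1 in tiny124 stood at 16.6, 16.4 and 14.3 CPM, a narrow range that included the level of WT replicate 3, and its value of -2.25 ± 0.59 did not pass (adjusted p = 0.0579). It passed when WT replicate 1, WT replicate 3 or replicate 2 of TINYOE was left out (adjusted p = 0.0411, 0.00789 and 0.0421). The highest adjusted p over the alternatives was 0.205. Without a filter the adjusted p was 1.12e-22, though the log2 fold change hardly moved (-2.2477 against -2.2464) and the same libraries overlapped. That p is therefore not read as stronger evidence. Without WT replicate 2 the value was -1.23 (adjusted p = 0.2). WRKY18 rose in tiny124 too (1.02, adjusted p = 0.013), at 46.9, 44.2 and 32.3 CPM against 18.0, 23.7 and 19.1 in WT, and the call was lost without WT replicate 3 or tiny124 replicate 1 or 2 (adjusted p from 0.0576 to 0.0863). Against tiny124, 6 of the 7 tested output genes were higher in TINYOE, all but WRKY18, where 5.12% of all genes were, with PR1 9.86-fold higher (3.30 ± 0.60, adjusted p = 0.00199), WRKY38 9.55-fold (adjusted p = 5.85e-05) and WRKY54 4.92-fold (adjusted p = 4.12e-05). The output genes GRX480 (AT1G28480) and WRKY62 were removed by the filter, with 0 to 19 and 1 to 5 counts.

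**Figure D4:**
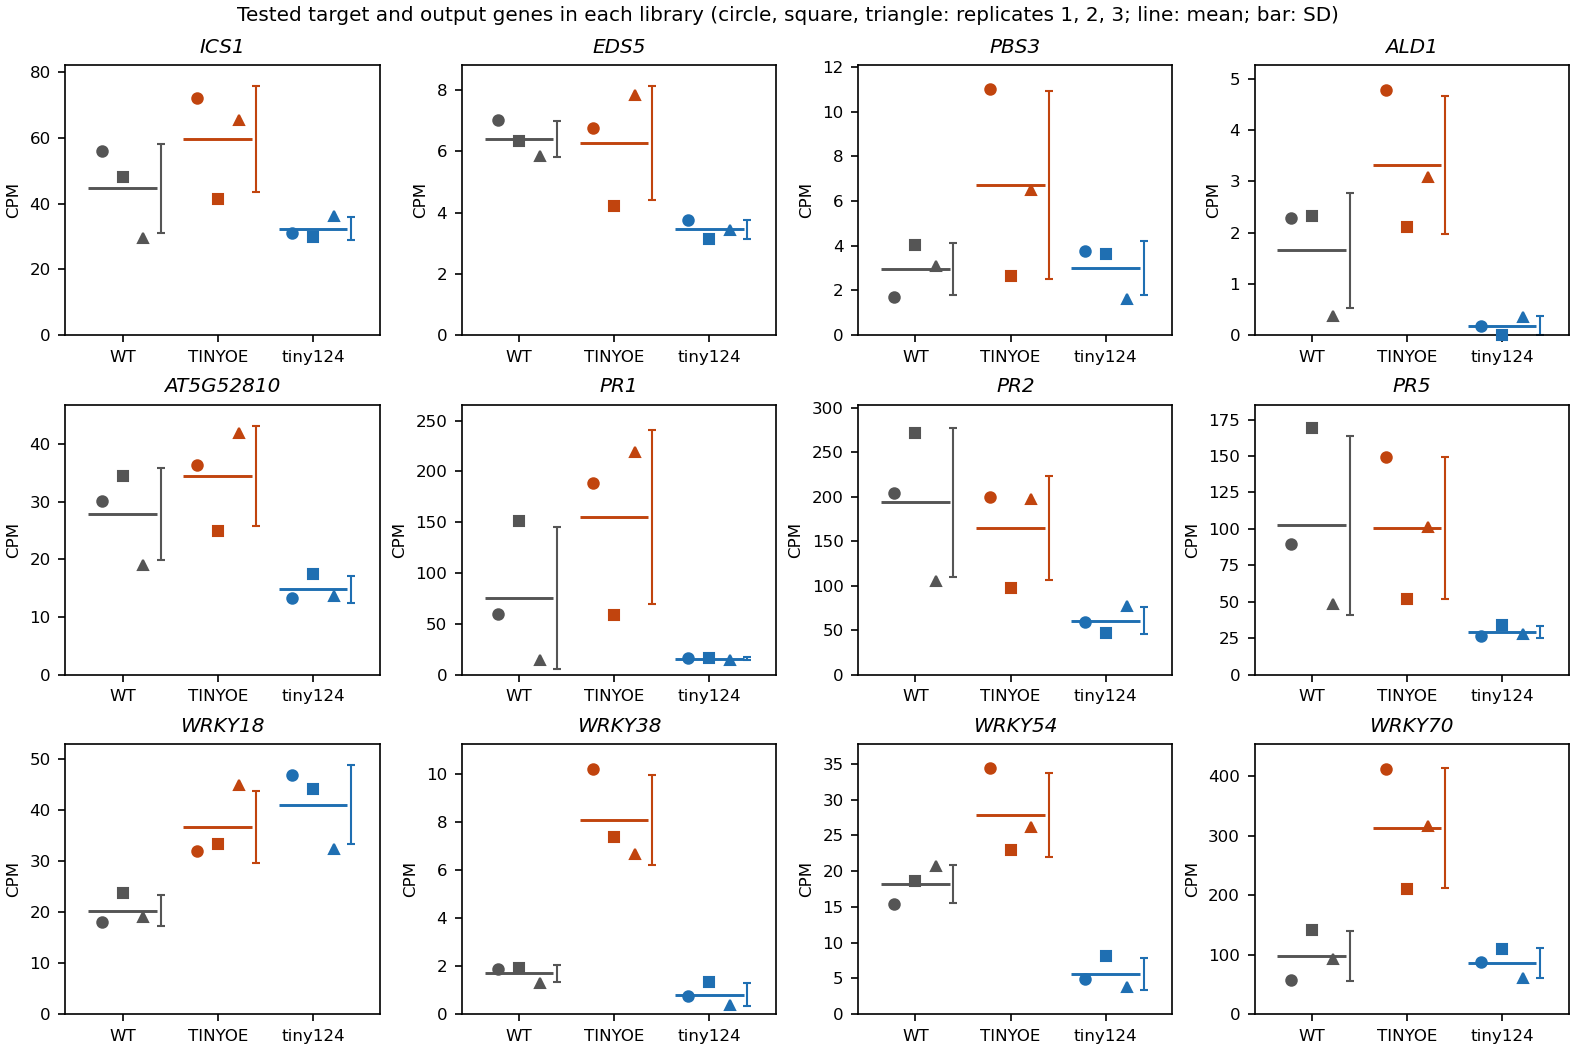
CPM (vertical axis, linear, from 0) in the 9 libraries of the 5 tested genes listed as activated by SARD1 and CBP60g (ICS1 to AT5G52810) and of the 7 tested output genes (PR1 to WRKY70), by genotype, with the mean as a line and the SD as a bar (n = 3). PR1, PR2 and PR5 overlap between WT and TINYOE and have their lowest mean in tiny124, while WRKY38 and WRKY70 stand apart in TINYOE.

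In the authors' deposited table for TINYOE, which likewise does not hold WT replicate 2, the same 7 regulators had an adjusted p under 0.05 and all were higher. The authors' deposited table gives NIMIN1 a fold change of 6.69, CBP60g 5.49, NIMIN2 4.48, SARD1 4.11, PAD4 3.06, EDS1 2.81 and NPR3 1.83. The authors' deposited table for tiny124 holds 1 of the 10 under that threshold, CBP60g, and gives no adjusted p for NPR4.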

How the data were processed

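The deposited counts are whole numbers of 3' tags per gene. Per the labels, trimming and mapping to TAIR10 used version 2.2.2 of the QuantSeq FWD pipeline of BlueBee and Lexogen. No source used here names its aligner or annotation. The authors deposited DESeq2 tables, a tool named without a version in the submitters' processing notes. Per the file headers these hold counts of 8 libraries, normalized counts rounded to whole numbers and treated as a score, a fold change (a ratio of line over WT) with its log2, and p-values with and without adjustment.

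The members and lists were chosen with earlier results of these data known, so no p is adjusted over a list. Of 32833 genes, 16434 were kept by edgeR's filterByExpr, and 32548 matched by locus the TAIR10.1 annotation, which was used for names and neighbouring genes only, with no coordinates or sequences because the build differs in name from TAIR10. Genes were tested with the quasi-likelihood test of edgeR 4.0.16 under R 4.3.3 (limma 3.58.1), after TMM scaling. All 9 libraries entered 1 fit on genotype, which left 6 residual degrees of freedom. Tests were two-sided with Benjamini-Hochberg adjustment over all genes tested and a threshold of 0.05. Each adjusted p is from this test unless another is named. A value after ± is an SD for CPM and a standard error, the estimate over the square root of its F statistic, for a log2 fold change. The fit was tested on simulated data. Named genes were the 10 members, up to 3 called genes of each list and comparison with the largest change (the most abundant where none was called) and the 2 genes most like each called member. All 7 tested output genes and others named as list members were added after their values were seen. The alternatives were DESeq2 1.42.0, DESeq2 size factors, no filter, a filter that keeps genes reaching 5 CPM in 3 or more libraries, the 6 libraries compared only, a replicate block, leaving out each library, and EDS1 summed with its copy.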

Additional observations from a re-analysis of the deposited data

How the results depend on the processing

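In TINYOE over WT, 7 regulators were called higher and 0 lower in all 15 alternatives, and 146 of 150 values kept their direction and side of the threshold. For tiny124 over WT 137 of 149 did, and between the lines 143 of 149. The cause was not tested for any change listed here. With tiny124 against WT, 1 regulator, CBP60g, was called with DESeq2 (0.96), without a filter (0.97) and without WT replicate 2 (1.47), and leaving out a library gave 0 to 1 calls and 0.74 to 1.47. Between the lines CBP60g ran from 0.81 to 1.15 with a library left out.

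Over all genes, leaving out a library gave 868 to 2141 genes higher and 712 to 1891 lower in TINYOE over WT, against 1339 and 1222. For tiny124 it gave 129 to 375 higher and 34 to 151 lower, against 287 and 124. There, 488 were higher and 218 lower without a filter, 81 lower with the 6 libraries compared only and 75 lower with the replicate block. Between the lines it gave 481 to 1131 higher and 461 to 1074 lower, against 841 and 777, with 1167 lower for the 6 libraries only.

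Directions of uncalled genes changed when a library was left out. In TINYOE over WT the ranges were -0.46 to 0.59 for NPR4, -0.12 to 0.23 for NIMIN3, -0.52 to 0.10 for PR2 and -0.42 to 0.55 for PR5. For tiny124 they were -0.84 to 0.21 for NPR4, -0.21 to 0.0683 for NIMIN3, -0.23 to 0.25 for SARD1, -0.31 to 0.27 for EDS1, -0.20 to 0.41 for AT4G26120, -0.14 to 0.0119 for TGA3, -0.24 to 0.0307 for TRXH3, -0.24 to 0.32 for ADR1-L1 and -0.43 to 0.20 for WRKY70. Between the lines NIMIN3 ran from -0.0521 to 0.29.

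With the replicate number as a block, PR5 in TINYOE over WT was at 0.0736 and SARD1 in tiny124 over WT at -0.0217. The labels do not say that the numbers pair libraries. Of 9 pairs with the same number, 2 correlated above 0.1, within -0.31 to 0.36, and 3 of 9 libraries correlated best with their own number. These values do not settle whether the libraries were paired. NPR4, with 6 to 20 counts, could not be fitted under the filter of 5 CPM.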
